A study of Mus musculus with 9 samples.

Results

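Collagens are structural proteins of the extracellular matrix, and each collagen molecule is a helix wound from alpha chains that separate genes encode. Fibrillar collagens give tissues their tensile strength, collagen IV forms the network of basement membranes, and collagen VI forms beaded filaments around cells. In the uterus these chains are made mainly by stromal and smooth muscle cells, and their accumulation in the stroma is the hallmark of fibrosis. Collagen chain genes were taken here as the features whose name is made of Col, a number, the letter a and a closing number, which selected 44 of the 55228 features. All 44 matched a gene of GENCODE M21 on GRCm38. By textbook class, 11 were fibrillar, 9 network-forming, 6 of beaded filaments, 9 fibril-associated (FACIT), 4 transmembrane, 2 multiplexins and 3 of anchoring fibrils or other kinds.

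RNA of the uterus was sequenced on day 7 from 9 wild-type (WT) female C57BL mice, 8 weeks old, with 1 library per mouse and 3 mice per group. The sham group underwent a sham operation. In the injury group the uterine cavity was damaged by a rotated 27-gauge needle that was withdrawn 10 times, labelled curretage, and 50 μL of PBS was given. The CRC group had the same damage, followed immediately by transplantation of CRCs in a suspension of 50 μL. CRCs are conditionally reprogrammed mouse endometrial epithelial cells that were cultured together with irradiated mouse 3T3 cells. Since the transplanted cells and the hosts are both from mice, RNA of graft and host cannot be told apart in the counts. The comparisons ask how the collagen genes of the injured uterus stood against the sham-operated uterus, and how they stood after CRC transplantation.

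The features held between 280886 and 327883 counts per library, which was 0.776% to 0.898% of all records. Levels are given as CPM, counts per 1000000 counts on features, with library sizes scaled by TMM. On this scale 1 count was worth 3.05 to 3.70 CPM. By counting error alone, 0 in a library is compatible with 3 counts there, which are worth 9.14 to 11.1 CPM. The collagen genes together held 2985 counts, or 0.111% of the 2694944 counts on features. Several markers of uterine cells were scarce: over the 9 libraries the stromal genes Dcn and Lum had 4 counts each, the epithelial keratin genes Krt8 and Krt18 had 2 and 8, and Actb, which all cells use, had 6. Others were not, with 147 counts for Hoxa11 of the uterine stroma and 459 for Myh11 of smooth muscle, so that the labelled tissue could be checked through part of its markers only. The smooth muscle gene Tagln had 159 counts, while Gm48529 on the opposite strand had 130075. Whether the counting took strand into account is not given in the sources used here, so that reads of a gene and of a feature on its other strand cannot be told apart. Hence low collagen counts do not show low collagen RNA, and the levels and fold changes below are those of the counts under each gene's name, which may be of RNA from its other strand. In whole tissue, fewer cells of a type and less RNA per cell cannot be told apart either.

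The libraries of sham 2 and sham 3 stood apart from the rest. They held 28622 and 24851 records that fell on more than 1 feature, against 1751 to 6470 in the other libraries, and sham 1 held 2571. Among the sham libraries they also had the higher summed collagen level. Calls and group ratios that rest on the sham group are therefore given below also without these libraries, so that sham 1 alone stands for the group.

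Of the 44 collagen genes, 17 had a total of 30 or more counts over the 9 libraries and 27 had fewer. The lowest total inside this minimum was 39, for Col6a6, and the highest outside it was 24, for Col24a1. Of the 17, 11 passed the filter on low counts and were tested in a fit of 3722 features, and 6 were not tested. The 3 collagen VI chain genes Col6a1, Col6a2 and Col6a3 and the collagen X gene Col10a1 held most of the collagen counts.

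The summed level of the collagen genes was 1106, 2480.0 and 1749 CPM in sham 1, 2 and 3, 1121, 1122 and 940.4 CPM in the injury libraries, and 548, 535 and 674 CPM in the CRC libraries. All 3 CRC libraries lay below every injury and sham library, while injury 1 and injury 2 lay above sham 1. The means were 1778 ± 687 CPM for sham, 1061 ± 104 CPM for injury and 586 ± 76.9 CPM for CRC (SD, n = 3). The mean of the CRC group was 0.329 times that of sham and 0.552 times that of injury, and the mean of injury was 0.597 times that of sham. Against sham 1 alone these ratios were 0.530 for CRC and 0.959 for injury. The collagen VI chains Col6a1, Col6a2 and Col6a3 made up 44.7% ± 7.60 of the collagen counts in sham, 44.1% ± 7.16 in injury and 19.1% ± 3.90 in CRC (SD, n = 3). The share of Col10a1 was 21.6% ± 2.94 in sham, 19.7% ± 5.75 in injury and 39.4% ± 2.75 in CRC (SD, n = 3). Thus in the CRC libraries Col10a1 held more collagen counts than the 3 collagen VI chains, and in every sham and injury library it held fewer. Without both of these, the remaining collagen genes summed to 577 ± 163 CPM in sham, 383 ± 45.9 CPM in injury and 242 ± 25.3 CPM in CRC (SD, n = 3), with 444 CPM in sham 1.

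**Figure D1:**
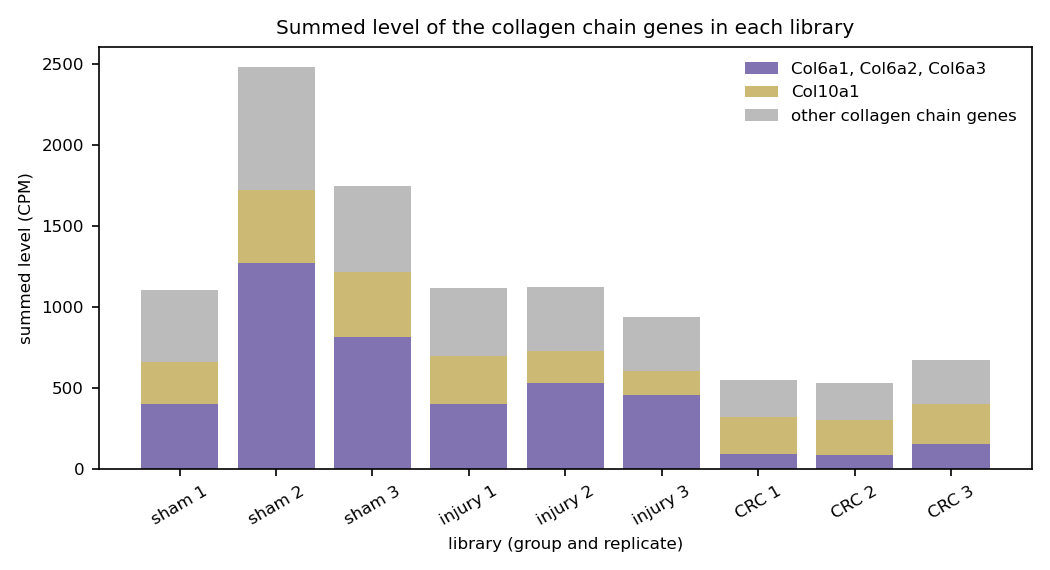
Summed level of the 44 collagen chain genes in CPM (vertical axis) in each of the 9 libraries (horizontal axis), split into Col6a1, Col6a2 and Col6a3, Col10a1, and the other genes. The CRC libraries lie between 535 and 674 CPM, below all sham and injury libraries, and sham 2 is highest with 2480.0 CPM.

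Between CRC and sham, 7 of the 11 tested collagen genes were lower at an adjusted p under 0.05 and 0 were higher, by edgeR's quasi-likelihood test, adjusted over all 3722 features tested after Benjamini and Hochberg. DESeq2's Wald test called 6 lower and 0 higher, and 7 had an unadjusted p under 0.05 with either tool, all lower, against 32.1% of all features in either direction with edgeR (17.6% lower) and 29.9% with DESeq2. Among all features tested, 12.0% were called lower and 8.03% higher. The CRC libraries lay below all sham libraries in CPM for 7 of the 11, against 17.8% of all features. The median log2 fold change of the 11 was -1.93, against 0.03 over all features. Without sham 2 and sham 3, 2 of the 11 were called lower, Col6a2 and Col6a3, among 312 features called lower and 187 called higher, and the median of the 11 was -1.19, against 0.06 over all features. The CRC libraries lay below sham 1 for 9 of the 11 and for 33.4% of all features. Without CRC 2 alone 4 of the 11 were called lower.

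Between CRC and injury, 4 of the 11 were called lower and 0 higher by the same test, and 4 were called by DESeq2's Wald test. The background was 7.82% of all features called lower and 5.10% called higher. The CRC libraries lay below all injury libraries for 6 of the 11, against 17.0% of all features. The median log2 fold change of the 11 was -1.07, against 0.01 over all features. The sham libraries enter this comparison through the filter, the scaling and the shared estimate of the spread.

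Between injury and sham, 0 of the 11 were called in either direction by edgeR's quasi-likelihood test, and 4 had an unadjusted p under 0.05, all lower in injury: Col6a2, Col6a3, Col1a1 and Col10a1. Over all features 12.6% had an unadjusted p under 0.05, and 7.23% did so with a lower value in injury. DESeq2's Wald test had 3 at an unadjusted p under 0.05, against 10.5% of all features, and gave an adjusted p for 2 of the 11, Col6a2 and Col10a1, neither called; its independent filtering left the other 9 without one. With this filtering off, an alternative added after seeing the data, it called 0 of the 11. Few features were called in this comparison, 0.161% lower and 0.269% higher. The injury libraries lay below all sham libraries for 0 of the 11, against 7.82% of all features. The median log2 fold change of the 11 was -0.73, against -0.01 over all features. Without sham 1, 2 of the 11 were called lower, Col6a2 and Col10a1, while the calls over all features went from 6 to 84 lower and from 10 to 68 higher. Without sham 2 and sham 3, 0 of the 11 were called or had an unadjusted p under 0.05, and their median was 0.023, against 0.013 over all features. The injury libraries lay below sham 1 for 1 of the 11 and for 26.5% of all features.

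The 3 comparisons share libraries in pairs, so their values stand side by side and are not independent. A collagen gene with few counts passes the filter through the group in which it is high, so these counts and medians describe the genes tested and not all 44. With library sizes set to all records, the median over all features moved from 0.03 to 0.32 between CRC and sham and from 0.01 to 0.21 between CRC and injury, and the calls over all features between CRC and sham went from 299 higher and 447 lower to 643 higher and 281 lower. Under this scaling 6 and 4 of the 11 collagen genes were called lower in these comparisons, and Col10a1 was the gene no longer called.

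**Figure D2:**
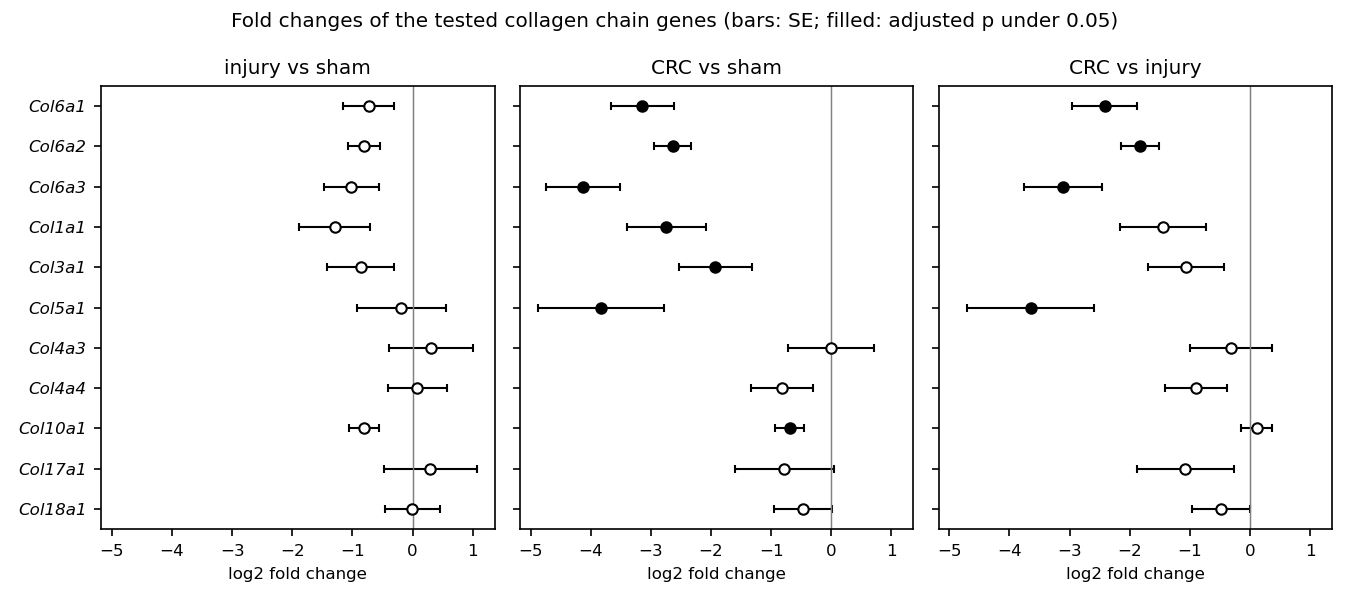
Log2 fold changes of the 11 tested collagen chain genes (horizontal axis, with SE as bars) for injury against sham, CRC against sham and CRC against injury; filled points have an adjusted p under 0.05. Filled points number 0, 7 and 4 in these panels, and all are below 0.

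Collagen VI was the collagen with the most counts. Its chains alpha1, alpha2 and alpha3, encoded by Col6a1, Col6a2 and Col6a3, assemble together into the monomer of the beaded filaments. The alpha2 gene Col6a2 (ENSMUSG00000020241.13, chr10:76595762-76623630, minus strand) was counted 94, 241 and 163 times in sham 1, 2 and 3, 85, 105 and 99 times in the injury libraries and 26, 24 and 43 times in the CRC libraries. All 3 CRC libraries were below every other library, and the injury libraries overlapped sham 1. The level was 593 ± 294 CPM in sham, 337 ± 38.2 CPM in injury and 94.7 ± 31.7 CPM in CRC (SD, n = 3). Col6a2 was 6.22-fold lower in CRC than in sham, with a log2 fold change of -2.64 ± 0.31 (SE) and an adjusted p of 4.54e-07 by edgeR's quasi-likelihood test (Benjamini-Hochberg). Against injury its log2 fold change was -1.83 ± 0.31 (SE), with an adjusted p of 1.49e-04 by edgeR's quasi-likelihood test (Benjamini-Hochberg). Between injury and sham it was -0.81 ± 0.27 (SE), which did not pass (adjusted p = 0.190 by edgeR's quasi-likelihood test (Benjamini-Hochberg)), but passed without sham 1 at -1.13 with an adjusted p of 0.00186. Without sham 2 and sham 3 the difference of CRC against sham was -1.68, still called, and that of injury was 0.14, not called.

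The alpha1 gene Col6a1 (ENSMUSG00000001119.7, chr10:76708792-76726168, minus strand) was counted 13, 53 and 35 times in sham 1, 2 and 3, 20, 21 and 21 times in the injury libraries and 4, 3 and 6 times in the CRC libraries. Again the CRC libraries lay below all others, and sham 1 lay below the 3 injury libraries. Its level was 121 ± 77.1 CPM in sham, 72.3 ± 2.52 CPM in injury and 13.2 ± 4.63 CPM in CRC (SD, n = 3). The log2 fold change of Col6a1 was -3.14 ± 0.52 (SE) between CRC and sham and -2.41 ± 0.54 (SE) between CRC and injury, with adjusted p-values of 4.26e-05 and 0.00232 by edgeR's quasi-likelihood test (Benjamini-Hochberg). Between injury and sham it was -0.73 ± 0.42 (SE) and not called. Without sham 2 and sham 3 the difference of CRC from sham was -1.64 and no longer called (adjusted p = 0.120 by edgeR's quasi-likelihood test (Benjamini-Hochberg)), and that of injury was 0.77, not called.

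The alpha3 gene Col6a3 (ENSMUSG00000048126.16, chr1:90765923-90843971, minus strand) was counted 17, 49 and 30 times in sham 1, 2 and 3, 11, 26 and 11 times in the injury libraries and 2, 1 and 3 times in the CRC libraries. No CRC library held more than the 3 counts that 0 allows, all others held more, and injury 2 lay above sham 1. The level was 115 ± 63.4 CPM in sham, 56.1 ± 30.6 CPM in injury and 6.10 ± 3.04 CPM in CRC (SD, n = 3). With 6 counts in CRC against 96 in sham the ratio of levels was 0.0546, with a 95% counting interval of 0.0196 to 0.123 (exact Clopper-Pearson), and against 48 in injury it was 0.109, with an interval of 0.0382 to 0.256. The fitted log2 fold changes of Col6a3 were -4.13 ± 0.61 and -3.11 ± 0.65 (SE) in CRC against sham and injury, with adjusted p-values of 9.41e-06 and 0.00116 by edgeR's quasi-likelihood test (Benjamini-Hochberg). Its log2 fold change between injury and sham was -1.02 ± 0.46 (SE), not called. Without sham 2 and sham 3 the difference of CRC against sham was -3.09 and still called, and that of injury was 0.023, not called. Against the 17 counts of sham 1 alone the ratio of CRC was 0.111, with a 95% counting interval of 0.0358 to 0.295.

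Per length of exons, the levels of the 3 chains were unequal in each group. The mean level of Col6a2 was 71.3 CPM per kb in sham, that of Col6a1 27.7 CPM per kb and that of Col6a3 9.58 CPM per kb, and in sham 1 alone they were 36.6, 9.63 and 4.61 CPM per kb. In injury they stood at 40.5, 16.5 and 4.69 CPM per kb, and in CRC at 11.4, 3.02 and 0.510 CPM per kb, so the order was the same in the 3 groups. Col6a1 and Col6a2 lie close together on the minus strand of chromosome 10, whereas Col6a3 lies on chromosome 1. In GENCODE M21 no exon of the opposite strand overlaps those of these genes. The calls of these 3 genes between CRC and sham and between CRC and injury held with each of the libraries left out in turn.

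The genes of the alternative collagen VI chains, Col6a4, Col6a5 and Col6a6, are clustered on chromosome 9 and had few counts. Col6a4 was counted 3, 15 and 6 times in sham 1, 2 and 3, 7, 4 and 3 times in the injury libraries and 0, 0 and 2 times in the CRC libraries, and did not pass the filter. The CRC libraries lay below all others, with 2 counts against 24 in sham, a ratio of 0.0729 with a 95% counting interval of 0.00834 to 0.293; against the 3 counts of sham 1 alone the interval was 0.0175 to 1.83. Against injury, with 14 counts, the ratio was 0.125 with a 95% interval of 0.0138 to 0.543. When all features with a total of 30 or more counts were tested, Col6a4 was called lower in CRC than in sham (adjusted p = 0.0300 by edgeR's quasi-likelihood test (Benjamini-Hochberg)), and with no filter it was not (adjusted p = 0.0585). Between CRC and injury Col6a4 was called in neither of these fits, with adjusted p-values of 0.159 and 0.371 by the same test. Col6a6 was counted 5, 6 and 3 times in sham 1, 2 and 3, 6, 3 and 4 times in the injury libraries and 7, 2 and 3 times in the CRC libraries, with all groups overlapping. Col6a5 had 1 count in all.

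Of the 11 fibrillar collagen genes, 3 were tested, and all 3 were called lower in CRC than in sham, where 12.0% of all features were, but 0 of the 3 without sham 2 and sham 3. The main chain of collagen I, which forms the thick fibrils of connective tissue, is encoded by Col1a1 (ENSMUSG00000001506.10, chr11:94936224-94953042, plus strand). Col1a1 was counted 10, 16 and 28 times in sham 1, 2 and 3, 5, 6 and 11 times in the injury libraries and 3, 2 and 4 times in the CRC libraries. The CRC libraries lay below all injury and sham libraries, and injury 3 overlapped sham 1. Its level was 63.9 ± 34.1 CPM in sham, 25.7 ± 11.3 CPM in injury and 9.16 ± 3.03 CPM in CRC (SD, n = 3). The log2 fold change of CRC against sham was -2.74 ± 0.66 (SE), with an adjusted p of 0.00323 by edgeR's quasi-likelihood test (Benjamini-Hochberg), and it was called with each of the libraries left out in turn. Between CRC and injury it was -1.44 ± 0.72 (SE) and did not pass, although the libraries did not overlap (adjusted p = 0.207 by edgeR's quasi-likelihood test (Benjamini-Hochberg)). Between injury and sham it was -1.30 ± 0.59 (SE), not called. Without sham 2 and sham 3 the difference of CRC against sham was -1.78 and no longer called (adjusted p = 0.274 by the same test), and that of injury was -0.33, not called. The partner chain gene Col1a2 had 5 counts over all libraries, against 85 for Col1a1, and per length of exons its mean level in sham was 0.295 CPM per kb against 9.74 CPM per kb, and in sham 1 alone it was 0 against 4.94 CPM per kb.

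Collagen III, which forms thinner fibrils together with collagen I in elastic and hollow organs, is made of the chain that Col3a1 encodes (ENSMUSG00000026043.18, chr1:45311538-45349706, plus strand). Col3a1 was counted 10, 23 and 14 times in sham 1, 2 and 3, 8, 7 and 11 times in the injury libraries and 6, 4 and 4 times in the CRC libraries. Each CRC library was below all others, and injury 3 lay above sham 1 in CPM. The level was 55.9 ± 26.8 CPM in sham, 30.3 ± 7.34 CPM in injury and 14.3 ± 3.48 CPM in CRC (SD, n = 3). Its log2 fold change of CRC against sham was -1.93 ± 0.60 (SE), with an adjusted p of 0.0219 by edgeR's quasi-likelihood test (Benjamini-Hochberg). This call was lost without sham 2, without CRC 2 and without CRC 3, with log2 fold changes of -1.50, -1.82 and -1.82, and without sham 2 and sham 3 together, at -1.16 (adjusted p = 0.458 by the same test). With no filter on low counts it was lost as well, at -1.89 (adjusted p = 0.0898). Neither the difference between CRC and injury, -1.07 ± 0.64 (SE), nor that between injury and sham, -0.86 ± 0.56 (SE) and -0.096 without sham 2 and sham 3, was called. An exon of the feature Gm47302 overlaps Col3a1 on the same strand.

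Collagen V takes part in starting the fibrils of collagen I, and its alpha1 chain is encoded by Col5a1 (ENSMUSG00000026837.15, chr2:27886425-28039514, plus strand). Col5a1 was counted 2, 15 and 12 times in sham 1, 2 and 3, 10, 6 and 10 times in the injury libraries and 1, 0 and 1 times in the CRC libraries. The 3 CRC libraries were at or near 0, while sham 1 was low as well and lay below the injury libraries. With 2 counts in CRC against 29 in sham the ratio was 0.0603, with a 95% counting interval of 0.00697 to 0.238, and against 26 in injury it was 0.0672, with an interval of 0.00773 to 0.268. Against the 2 counts of sham 1 alone the interval was 0.0228 to 4.33. Col5a1 was called lower in CRC than in sham and than in injury, with fitted log2 fold changes of -3.83 ± 1.05 and -3.65 ± 1.06 (SE) and adjusted p-values of 0.00887 and 0.0188 by edgeR's quasi-likelihood test (Benjamini-Hochberg). The call against sham was lost without CRC 2 at a log2 fold change of -3.32 (adjusted p = 0.0509 by the same test), and without sham 2 and sham 3 together at -1.50 (adjusted p = 0.667). That against injury was lost without injury 1, injury 3, CRC 2 or CRC 3, where the log2 fold change lay between -3.98 and -3.15 and the adjusted p between 0.0528 and 0.0870 by the same test. Its log2 fold change of injury against sham was -0.19 ± 0.74 (SE), and 2.16 without sham 2 and sham 3, not called in either. Exons of Gm13372, with 33 counts in all, and 2810430I11Rik, with 2, overlap Col5a1 on the other strand. The alpha2 chain gene Col5a2, which lies beside Col3a1 on chromosome 1, had 20 counts, 13 of them in sham 2 and sham 3, and Col24a1 had 24.

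**Figure D3:**
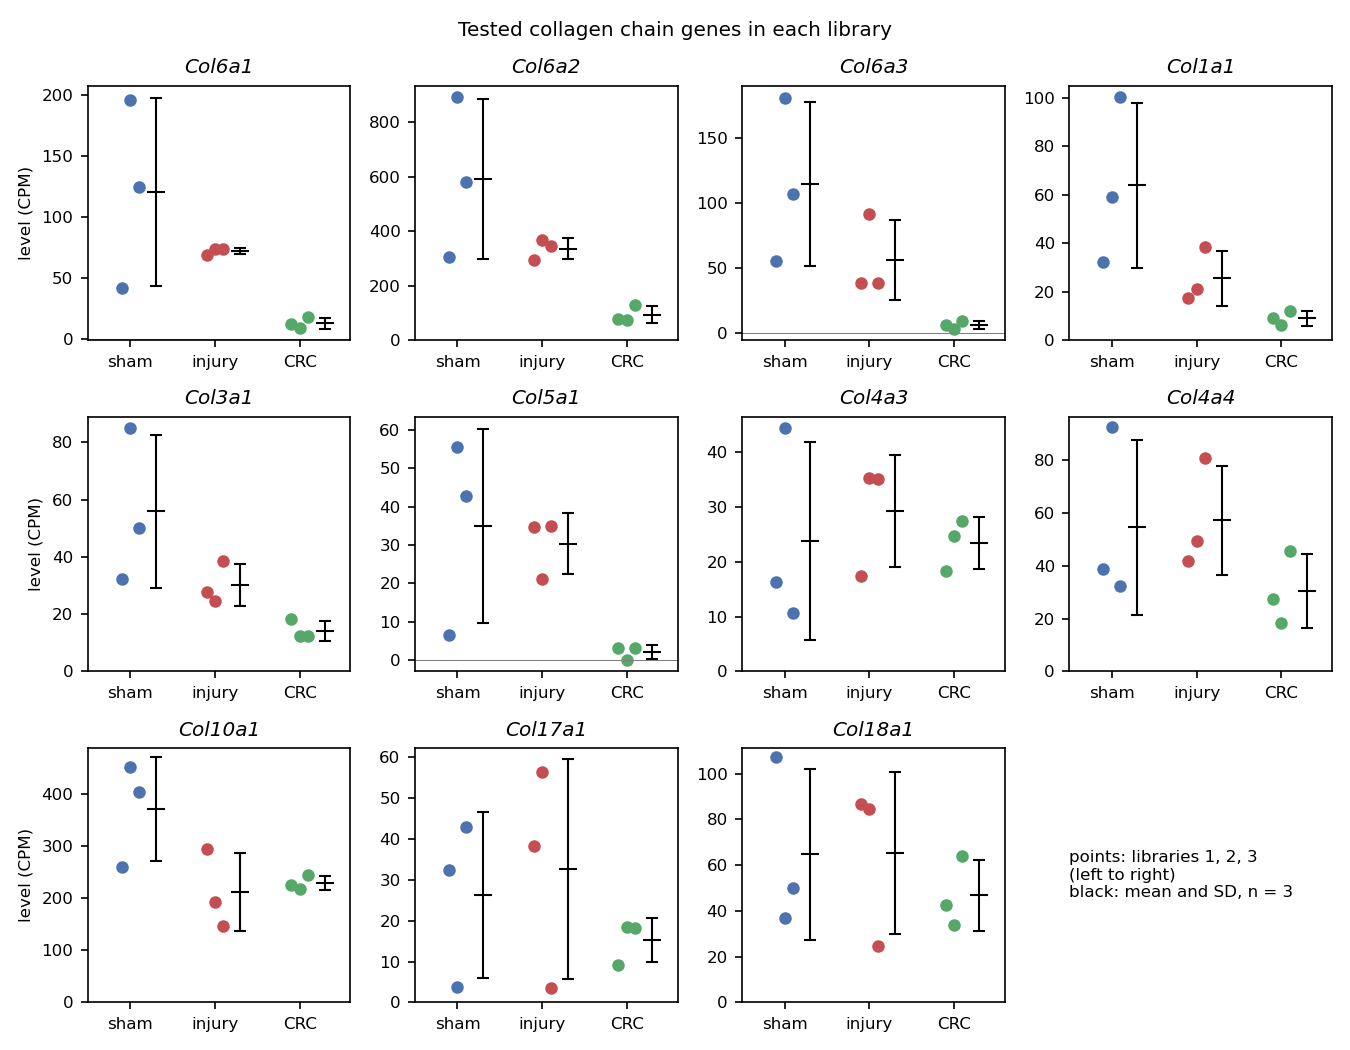
Level in CPM (vertical axes) of the 11 tested collagen chain genes in each sham, injury and CRC library, with the mean and SD of each group (n = 3) in black. For Col6a1, Col6a2, Col6a3, Col1a1, Col3a1 and Col5a1 all 3 CRC libraries lie below the sham and injury libraries, and for Col4a3, Col4a4, Col17a1 and Col18a1 the groups overlap.

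Of 3 tested genes of network-forming collagens, 1 was called lower in CRC than in sham, a call that was lost in 14 of 17 alternatives, and 0 were called between CRC and injury. Over all features 12.0% were called lower in CRC than in sham and 7.82% lower in CRC than in injury. Col10a1 encodes collagen X, known from the hypertrophic cartilage of growing bones, and lies on the plus strand at chr10:34389981-34397085 (ENSMUSG00000039462.4). It was counted 80, 122 and 113 times in sham 1, 2 and 3, 85, 55 and 42 times in the injury libraries and 74, 71 and 80 times in the CRC libraries. In CPM all 3 CRC libraries were below sham 1, the lowest of the sham libraries, and the injury libraries spread on both sides of the CRC libraries. The level was 372 ± 100.1 CPM in sham, 212 ± 75.5 CPM in injury and 229 ± 13.3 CPM in CRC (SD, n = 3). Its log2 fold change was -0.69 ± 0.25 (SE) between CRC and sham, with an adjusted p of 0.0457 by edgeR's quasi-likelihood test (Benjamini-Hochberg). The call was lost without sham 2, sham 3, CRC 1, CRC 2 or CRC 3, where the log2 fold change lay between -0.73 and -0.53, and at -0.39 with library sizes set to all records. It was lost as well with upper-quartile scaling, DESeq2's Wald test, the other filters and the replicate block. There the log2 fold change was about as large, between -0.70 and -0.62. The adjusted p, by DESeq2's Wald test or edgeR's quasi-likelihood test (Benjamini-Hochberg), lay between 0.0551 and 0.138. Without sham 2 and sham 3 together the call was lost too, at a log2 fold change of -0.18. In injury against sham Col10a1 had a log2 fold change of -0.80 ± 0.25 (SE), which was not called (adjusted p = 0.158 by edgeR's quasi-likelihood test (Benjamini-Hochberg)) but was called without sham 1, at -1.01 and an adjusted p of 0.0113. It was -0.29 without sham 2 and sham 3, not called. The difference between CRC and injury was 0.11 ± 0.26 (SE), and it changed sign without injury 3. Col10a1 lies inside the span of Nt5dc1 on the other strand, with 18 bases of exon in common, and Nt5dc1 had 22 counts in all. Since reads of the 2 strands cannot be told apart here, these 22 counts do not show that Nt5dc1 RNA was scarce. How much of the Col10a1 count came from RNA of the other strand was not tested. Per length of exons, the counts under the name Col10a1 gave the highest mean level of the collagen genes in each group. It was 118.8 CPM per kb in sham, with 82.9 in sham 1, 67.7 in injury and 73.2 in CRC.

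Collagen IV chains alpha3 and alpha4 belong to specialised basement membranes such as that of the kidney glomerulus. Their genes Col4a3 and Col4a4 lie head to head on chromosome 1. Col4a4 was counted 12, 25 and 9 times in sham 1, 2 and 3, 12, 14 and 23 times in the injury libraries and 9, 6 and 15 times in the CRC libraries. Col4a3 was counted 5, 12 and 3 times in sham 1, 2 and 3, 5, 10 and 10 times in the injury libraries and 6, 8 and 9 times in the CRC libraries. The 3 groups overlapped for both genes. For Col4a4 the log2 fold change was 0.08 ± 0.49 (SE) between injury and sham, -0.82 ± 0.52 (SE) between CRC and sham and -0.90 ± 0.52 (SE) between CRC and injury. For Col4a3 these values were 0.30 ± 0.69, -0.01 ± 0.71 and -0.31 ± 0.68 (SE). None of these differences was called. The log2 fold changes of injury and CRC against sham 1 alone were 0.55 and -0.35 for Col4a4 and 0.83 and 0.52 for Col4a3, not called. Exons of C430014B12Rik overlap 563 bases of Col4a3 on the other strand, and this feature, with 95 counts, was not called in any comparison either, but without sham 2 and sham 3 it was called lower in CRC than in sham, at -1.88 ± 0.67 (SE) with an adjusted p of 0.0479 by edgeR's quasi-likelihood test (Benjamini-Hochberg).

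The chains alpha1 and alpha2 of collagen IV, which all basement membranes contain, come from the head-to-head genes Col4a1 and Col4a2 on chromosome 8, and neither gene passed the filter. Col4a2 was counted 9, 15 and 10 times in sham 1, 2 and 3, 7, 3 and 3 times in the injury libraries and 6, 8 and 3 times in the CRC libraries. Both the injury and the CRC libraries lay below all sham libraries for Col4a2, and they overlapped each other. Col4a1 was counted 4, 21 and 4 times in sham 1, 2 and 3, 4, 2 and 1 times in the injury libraries and 4, 2 and 1 times in the CRC libraries. Its high sham mean came from sham 2 alone. When all features with a total of 30 or more counts were tested, the log2 fold change of Col4a2 was -1.33 ± 0.69 (SE) between injury and sham and -1.18 ± 0.67 (SE) between CRC and sham, and that of Col4a1 was -1.98 ± 0.94 and -2.20 ± 0.94 (SE), none of them called. The X-linked genes Col4a5 and Col4a6 had 3 counts each.

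Of the multiplexins and the transmembrane collagens 1 gene each was tested, Col18a1 and Col17a1, and neither was called in any comparison. Of the 9 FACITs and the 3 genes of anchoring fibrils or other kinds 0 were tested. Col18a1 encodes the multiplexin of basement membranes from which endostatin is cut, and it was counted 33, 10 and 14 times in sham 1, 2 and 3, 25, 24 and 7 times in the injury libraries and 14, 11 and 21 times in the CRC libraries. Its libraries overlapped between all groups, and sham 1 was the highest. The log2 fold change of Col18a1 was 0.00 between injury and sham, -0.48 ± 0.48 (SE) between CRC and sham and -0.47 ± 0.48 (SE) between CRC and injury. Col17a1 encodes the transmembrane collagen of hemidesmosomes in epithelia, and it was counted 10, 1 and 12 times in sham 1, 2 and 3, 11, 16 and 1 times in the injury libraries and 3, 6 and 6 times in the CRC libraries. A single count stood in sham 2 and in injury 3, and the level was 26.3 ± 20.3 CPM in sham and 32.6 ± 26.8 CPM in injury (SD, n = 3). For Col17a1 the log2 fold changes were 0.29 ± 0.77, -0.78 ± 0.83 and -1.07 ± 0.81 (SE) in the same order. Against sham 1 alone the log2 fold changes of injury and CRC were -0.71 and -1.19 for Col18a1 and 0.0094 and -1.07 for Col17a1, not called.

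Among the genes that were not tested, the transmembrane collagen gene Col23a1 was counted 9, 13 and 3 times in sham 1, 2 and 3, 7, 4 and 2 times in the injury libraries and 6, 8 and 4 times in the CRC libraries. Col14a1, which encodes a FACIT on the surface of collagen I fibrils, was counted 5, 14 and 6 times in sham 1, 2 and 3, 7, 4 and 3 times in the injury libraries and 1, 3 and 7 times in the CRC libraries. The groups overlapped for both. By their mean level, 13 of the 17 collagen genes with 30 or more counts were lower in injury than in sham, 17 of 17 were lower in CRC than in sham, and 14 of 17 were lower in CRC than in injury. Over all 5726 features with 30 or more counts these shares were 51.3%, 48.2% and 47.6%. The differences counted here include some near 0, such as that of Col4a3 between CRC and sham, which changed sign in 8 of 16 alternatives. Against sham 1 alone 8 of the 17 were lower in injury and 16 in CRC, with 48.0% and 45.4% of all these features.

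The 27 collagen genes under the minimum held 118 counts together. Of these, 18 had between 1 and 24 counts, and 9 had 0 in every library: Col2a1, Col8a1, Col9a1, Col9a3, Col11a2, Col12a1, Col19a1, Col22a1 and Col26a1. Several of the 9, such as Col2a1, Col9a1 and Col11a2, are known as cartilage collagens, while Col12a1 is a FACIT of dense connective tissue. Since 0 in a library allows up to 3 counts there by counting error alone, these values do not show that the genes had no RNA. The FACIT gene Col9a2 was counted 0, 1 and 1 times in sham 1, 2 and 3, 3, 0 and 0 times in the injury libraries and 2, 5 and 3 times in the CRC libraries. Col8a2, of the network-forming class, had 0 counts in every sham and injury library and 1, 2 and 1 in CRC. For these genes the CRC libraries lay above all sham libraries in CPM, but most of their counts are within the 3 that 0 allows.

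Exons on the other strand overlapped 10 of the 44 collagen genes, and 3 of the 11 tested ones, Col10a1, Col4a3 and Col5a1. Features opposite a collagen gene were counted in the same libraries. Gm36993, which shares 127 bases with Col6a4, was counted 160, 157 and 153 times in sham 1, 2 and 3, 178, 177 and 197 times in the injury libraries and 92, 78 and 100 times in the CRC libraries. The CRC libraries lay below all others, as they did for Col6a4 itself. The level of Gm36993 was 549 ± 31.1 CPM in sham, 644 ± 41.2 CPM in injury and 275 ± 33.0 CPM in CRC (SD, n = 3). It was called lower in CRC than in both other groups, with a log2 fold change of -1.23 ± 0.18 (SE) against injury and adjusted p-values of 1.55e-04 against sham and 1.46e-05 against injury by edgeR's quasi-likelihood test (Benjamini-Hochberg). Its log2 fold change against sham was -0.92 ± 0.24 (SE) without sham 2 and sham 3, still called. Gm47575, which shares 162 bases with Col6a4, was counted 59, 44 and 52 times in sham 1, 2 and 3, 46, 64 and 70 times in the injury libraries and 25, 36 and 16 times in the CRC libraries. It was lower as well, at -1.19 ± 0.31 and -1.42 ± 0.30 (SE) against sham and injury, with adjusted p-values of 0.00547 and 0.00150 by edgeR's quasi-likelihood test (Benjamini-Hochberg), and without sham 2 and sham 3 it was still called against sham, at -1.28 ± 0.37 (SE). Gm38314, opposite Col6a6, had 128 counts and was not called. How far reads of these features and of Col6a4 and Col6a6 were mixed was not tested.

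Of the genes that act with the collagens few passed the filter, and Loxl3 had the most counts among them, 774. Of 29 genes of fibril maturation and crosslinking, 3 were tested, Pcolce, Loxl3 and Loxl4, and 0 were called in any comparison, although Loxl3, at -0.53 ± 0.25 (SE), and Loxl4, at 1.17 ± 0.52 (SE), had an unadjusted p under 0.05 between CRC and sham, in opposite directions. Loxl3 was called lower in CRC than in sham without sham 2 and sham 3, at -0.77 ± 0.27 (SE) with an adjusted p of 0.0459 by edgeR's quasi-likelihood test (Benjamini-Hochberg), and Loxl4 was not called there, at 2.08 ± 0.81 (SE) with an adjusted p of 0.0773. Exons of Htra2, with 2256 counts in all, overlap Loxl3 on the other strand. Of 22 genes of fibril-associated matrix 1 was tested, Tnxb, of 10 collagen receptor genes 1, Itga2, and of 17 genes of the TGF-beta pathway 3, Tgfb2, Smad3 and Ltbp2, and 0 of these were called in either direction by edgeR's quasi-likelihood test or by DESeq2's Wald test without independent filtering. Of 13 basement membrane genes 0 were tested. The genes of fibril-associated matrix summed to 139, 133 and 211 CPM in sham, 100.6, 109.0 and 119 CPM in injury and 91.4, 58.4 and 88.5 CPM in CRC, with each CRC library below all others and each injury library below all sham libraries. With all records as library size the CRC libraries stayed below sham and overlapped injury, and the injury libraries overlapped sham. The basement membrane genes, with 113 counts in all, summed to 55.1, 103.6 and 64.4 CPM in sham, 24.3, 3.52 and 31.6 CPM in injury and 30.5, 27.7 and 42.7 CPM in CRC, with each injury and CRC library below all sham libraries. The summed level of the TGF-beta pathway genes went the other way, with 237, 255 and 232 CPM in sham. It was 298, 359 and 274 CPM in injury and 268, 261 and 268 CPM in CRC. Each injury and CRC library lay above all sham libraries, also with all records as library size. Smad3 held 405 of the 734 counts of this list. The log2 fold changes of Smad3, Tgfb2 and Ltbp2 were 0.30 ± 0.31, 0.73 ± 0.54 and 0.72 ± 0.61 (SE) between injury and sham. Between CRC and sham they were 0.35 ± 0.30, 0.06 ± 0.55 and -0.19 ± 0.64 (SE). The sums of the maturation and crosslinking genes and of the receptor genes overlapped between all groups. Of 14 genes of collagen degradation 2 were tested, Timp3 and Timp4, and 1 was called, higher in CRC than in sham. The list summed to 240, 126 and 122 CPM in sham and to 167, 176 and 200 CPM in injury. In CRC it summed to 341, 261 and 351 CPM, with each CRC library above all others. Most of this sum was of the inhibitor genes Timp3 and Timp4, with mean levels of 149 and 137 CPM in CRC. Of the 14 genes 8 were at 0, among them Mmp3, Mmp8, Mmp9 and Mmp13. The sum therefore does not describe the enzymes that cut collagen. Timp4 in CRC was at 0.81 ± 0.34 (SE) against sham and 1.01 ± 0.35 (SE) against injury, not called. Without sham 2 and sham 3 its difference of CRC from sham was 0.39. Over these lists 10 genes were tested, of which 0, 4 and 2 had an unadjusted p under 0.05 between injury and sham, CRC and sham, and CRC and injury, against 12.6%, 32.1% and 24.7% of all features. Timp3, an inhibitor of matrix metalloproteinases that is bound to the matrix, was counted 35, 8 and 15 times in sham 1, 2 and 3, 22, 24 and 27 times in the injury libraries and 62, 34 and 50 times in the CRC libraries. Sham 1 overlapped the CRC libraries. The log2 fold change of Timp3 between CRC and sham was 1.15 ± 0.37 (SE), with an adjusted p of 0.0268 by edgeR's quasi-likelihood test (Benjamini-Hochberg), and exons of Syn3, with 28565 counts, overlap it on the other strand. It was 0.39 without sham 2 and sham 3 and no longer called (adjusted p = 0.594 by edgeR's quasi-likelihood test (Benjamini-Hochberg)).

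Markers of several cell types, among them the stromal and smooth muscle cells that mainly make collagen, were set beside these values. Of 10 markers of uterine stroma and fibroblasts, 1 was tested and 0 were called, Pdgfrb was at 0, and Hoxa11, which exons of Hoxa11os with 6450 counts overlap on the other strand, had the most counts. Their summed level was 97.3, 74.0 and 186 CPM in sham, 100.6, 119.6 and 59.7 CPM in injury and 118.8, 89.1 and 112.9 CPM in CRC, with all groups overlapping. Of 8 smooth muscle markers, 3 were tested, 0 were at 0, and Myh11 had the most counts. The smooth muscle markers summed to 399, 559 and 489.9 CPM in sham, 291, 334 and 316 CPM in injury and 241, 234 and 311 CPM in CRC, where each injury and CRC library was below all sham libraries. Myh11, the smooth muscle myosin heavy chain gene, was counted 68, 81 and 78 times in sham 1, 2 and 3, 42, 45 and 35 times in the injury libraries and 33, 20 and 57 times in the CRC libraries. It was called lower in CRC than in sham, at -1.25 ± 0.30 (SE) with an adjusted p of 0.00299 by edgeR's quasi-likelihood test (Benjamini-Hochberg), and 0 of the smooth muscle markers were called by it or by DESeq2's Wald test without independent filtering in the other comparisons, where Myh11 had an unadjusted p under 0.05 between injury and sham. Its difference of CRC from sham was -0.98 without sham 2 and sham 3 and no longer called (adjusted p = 0.0639 by edgeR's quasi-likelihood test (Benjamini-Hochberg)). The other tested smooth muscle genes were not called: Tagln was at -1.13 ± 0.42 (SE) between CRC and sham, with an adjusted p of 0.0528 by edgeR's quasi-likelihood test (Benjamini-Hochberg), and Lmod1 was at 0.07, 0.13 and 0.06 between injury and sham, CRC and sham, and CRC and injury. Of 8 leukocyte markers, 1 was tested, Csf1r, and Ptprc, Adgre1 and Cd3e were at 0. Their summed level was 214, 244 and 282 CPM in sham, 226, 189.9 and 218 CPM in injury and 155, 111 and 116 CPM in CRC, and Csf1r, with most of these counts, was called lower in CRC than in sham, at -1.04 ± 0.26 (SE) with an adjusted p of 0.00431 by edgeR's quasi-likelihood test (Benjamini-Hochberg), and not without sham 2 and sham 3, at -0.86 (adjusted p = 0.0810). Exons of Hmgxb3, with 14 counts, overlap Csf1r on the other strand. Of the 10 epithelial, 6 endothelial, 5 pericyte and 4 mesothelial markers, 1 was tested, the pericyte gene Notch3, and it was not called. The epithelial markers, of which Cdh1 and Foxa2 were at 0 and Muc1 had the most counts, 27, summed to 55.1, 37.0 and 28.6 CPM in sham, 10.4, 21.1 and 14.0 CPM in injury and 21.3, 24.6 and 12.2 CPM in CRC, where each injury and CRC library was below all sham libraries in CPM. These sums rest on 67 counts, sham 3 and CRC 2 held 8 each, and with all records as library size CRC 2 lay above sham 3. The part of smooth muscle cells, leukocytes or epithelial cells in the collagen levels was not tested.

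Promoter windows of 250 bases before each start given by RefSeq were taken on GRCm38.p6, with 38 windows for 35 of the 44 collagen genes. The letters GGGCGG (GC box), searched on both strands, were in 57.9% of the collagen windows and in 32.7% of all 32851 windows. CCAAT was in 34.2% against 33.8%, and TATAAA in 13.2% against 12.4%. The windows of genes called lower in CRC than in both other groups are shown for Col6a2 (chr10:76623631-76623880 and chr10:76623405-76623654, which overlap, minus strand), Col6a1 (chr10:76726045-76726294, minus strand), Col6a3 (chr1:90843972-90844221, minus strand) and Col5a1 (chr2:27886175-27886424, plus strand), 5′ to 3′ along the gene, with GC box letters of either strand in capitals.
Col6a2, first window: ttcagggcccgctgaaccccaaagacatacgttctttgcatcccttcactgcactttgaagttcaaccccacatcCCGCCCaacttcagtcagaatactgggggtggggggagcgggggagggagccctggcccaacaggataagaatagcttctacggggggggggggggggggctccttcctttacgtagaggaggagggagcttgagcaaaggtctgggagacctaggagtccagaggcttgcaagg
Col6a2, second window: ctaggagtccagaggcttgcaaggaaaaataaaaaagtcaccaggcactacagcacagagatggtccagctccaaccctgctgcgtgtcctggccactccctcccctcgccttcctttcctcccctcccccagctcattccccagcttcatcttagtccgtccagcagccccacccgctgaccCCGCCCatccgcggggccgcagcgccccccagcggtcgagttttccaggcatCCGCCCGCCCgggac
Col6a1: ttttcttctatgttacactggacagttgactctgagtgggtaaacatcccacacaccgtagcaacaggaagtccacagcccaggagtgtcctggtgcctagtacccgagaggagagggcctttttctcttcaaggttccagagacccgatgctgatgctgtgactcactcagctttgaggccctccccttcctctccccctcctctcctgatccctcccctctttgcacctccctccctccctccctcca
Col6a3: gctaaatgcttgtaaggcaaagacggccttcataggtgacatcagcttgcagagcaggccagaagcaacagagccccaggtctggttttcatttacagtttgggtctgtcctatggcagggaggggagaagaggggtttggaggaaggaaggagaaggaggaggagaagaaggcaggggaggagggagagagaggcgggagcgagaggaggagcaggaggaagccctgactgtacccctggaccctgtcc
Col5a1: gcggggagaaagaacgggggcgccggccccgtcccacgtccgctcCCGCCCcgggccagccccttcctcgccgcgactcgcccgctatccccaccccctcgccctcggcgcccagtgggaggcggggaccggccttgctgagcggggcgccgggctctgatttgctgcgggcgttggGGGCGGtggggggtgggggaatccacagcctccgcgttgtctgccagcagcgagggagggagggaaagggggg
Col6a2 held these letters at 1 place in the first window and at 3 in the second, of which 2 overlap, Col5a1 at 2 places that do not overlap, and Col6a1 and Col6a3 at 0, and CCAAT and TATAAA were in none of these windows. The starts of RefSeq can differ from those of GENCODE M21. The window of Col6a1 lies partly, and the second of Col6a2 mostly, inside the span that GENCODE M21 gives the gene. A match of letters is a description of the sequence and shows no binding.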

How the data were processed

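RNA libraries were made from the uterus after removal of ribosomal RNA (Ribo-Zero Gold) and sequenced on the NovaSeq6000. The authors deposited 1 file of counts per library, not normalized, with 55228 features and 5 closing rows for records outside features. These 5 rows held 99.1% to 99.2% of all records and were left out of library sizes and tests. The submitters' processing notes name HISAT2 2.1.0 and StringTie 2.1.1. The names and closing rows of the files are those of HTSeq, whose version and strand setting are not given in the sources used here.

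The sample titles gave each library's group and number. Software was R 4.3.3, edgeR 4.0.16, DESeq2 1.42.0 and Python 3.11.15. After filterByExpr, 3722 features were kept, scaled by TMM and fitted over all 9 libraries with edgeR's robust quasi-likelihood model, and p-values were adjusted by Benjamini-Hochberg over all of them. The code was tested on simulated data. Library pairs within a group differed by more than sampling noise (chi-square per degree of freedom 2.25 to 14.1), so that each counted as 1 replicate. Exons and overlaps came from GENCODE M21, whereas the study names annotation version 23. Counting intervals and floors cover counting error only. Named genes were all collagen genes with 30 or more counts in total, and called genes of the companion lists. Col8a2, Col9a2 and other genes under the minimum, and Dcn, Lum, Krt8, Krt18, Actb, Tagln and Gm48529, were named after their values were seen. Members and lists were chosen with earlier results of these data known. Alternatives were other scalings, filters, tests and thresholds, fits of pairs of groups, the replicate block and leaving out each library in turn.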

Additional observations from a re-analysis of the deposited data

How the results depend on the processing

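Of 514 log2 fold changes of tested collagen genes under alternatives, 455 kept their direction and their side of the threshold, 27 lost a call, 2 gained one and 30 changed sign, none of the 30 for a difference that had been called. A further 9, by DESeq2's Wald test between injury and sham, had no adjusted p and are not counted; its test without independent filtering was added after seeing the data and called 0 between injury and sham, 6 between CRC and sham and 4 between CRC and injury. Genes called between CRC and sham numbered 7, and between 4 and 7 with each library left out in turn, with 4 without CRC 2. With at least 10 counts required in every library, 1 of 2 genes tested was called between CRC and sham and 1 between CRC and injury. For injury and sham, 0 to 2 were called with each library left out. The fit without sham 2 and sham 3, which was chosen after seeing the data and assumes that the lone sham library varies like the other groups, called 2 between CRC and sham; between injury and sham its log2 fold changes had the other sign for Col5a1 (2.16), Col6a1 (0.77), Col6a2 (0.14) and Col6a3 (0.023), and between CRC and sham for Col4a3 (0.52). The ratio of summed collagen levels moved to 0.959 for injury and 0.530 for CRC against sham 1 alone. With library sizes set to all records the ratio of summed collagen levels was 0.408 for CRC and sham and 0.635 for CRC and injury; the shift of all features under this scaling bears on both.

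Differences near 0 changed sign under several settings, and the cause was not tested. Col18a1 between injury and sham was 0.035 with upper-quartile scaling, 0.074 with all records, 0.054 with no filter, 0.033 with a total of 30 counts, 0.011 with 2 groups alone and 0.037 with the replicate block. Col4a3 between CRC and sham was 0.048, 0.29, 0.034 and 0.0048 under the first 4 of these and 0.069 with the replicate block. With libraries left out in turn the log2 fold changes ranged from -0.28 to 0.58 for Col18a1, -0.32 to 0.82 for Col17a1, -0.035 to 1.08 for Col4a3, -0.25 to 0.68 for Col4a4 and -0.69 to 0.32 for Col5a1 between injury and sham, from -0.75 to 0.10 for Col18a1 and -0.35 to 0.77 for Col4a3 between CRC and sham, and from -0.092 to 0.43 for Col10a1 between CRC and injury.

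With the replicate number as a block (replicate block), 0, 6 and 4 collagen genes were called between injury and sham, CRC and sham, and CRC and injury, and the features called in all were 4 higher and 1 lower, 270 higher and 412 lower, and 163 higher and 262 lower. Same-numbered libraries did not deviate together (correlations of -0.0964 to 0.0801, 0 of 9 over 0.1). The best match had the library's own number in 7 of 18 cases. Thus no pairing of the mice by number was seen, but with 3 libraries per group a weak pairing could be missed. At this depth 33 of the 44 collagen genes did not pass the filter.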
